A study of Danio rerio with 24 samples.

Results

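The genes described here are 8 of a set of 10 myelin and mature oligodendrocyte genes of the zebrafish: mbpa, mbpb, mpz, mag, cldnk, cnp, myrf and cd59. They were taken by name from the table of read counts, which holds 32266 genes, and each name matched 1 gene. RNA was read from 10 brain tumors of adult WIK zebrafish whose rb1 gene, the retinoblastoma tumor suppressor, had been cut in somatic cells by TALENs (designed nucleases), and from 2 control pools of normal brain from wild-type siblings, 3 fish to a pool, all aged 6.5 to 10 months. The tumor fish are somatic mosaics of cells with and without rb1 lesions, and RNA was taken from brain tissue of 1 side, so each tumor library may also hold brain that is not tumor. Each RNA sample gave library replicates a and b, which were summed into 12 samples.

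Oligodendrocytes wrap axons of the central nervous system in myelin, a compacted stack of membrane rich in lipid and in a small number of proteins. They arise from precursors through a committed stage, and the late genes of the lineage are switched on by transcription factors that include Sox10 and Myrf. Fish carry duplicate copies of several of these genes, among them the a and b copies of myelin basic protein, and unlike mammals they also use myelin protein zero in the myelin of the brain.

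Sequencing depth ran from 8.79 to 12.84 M (mega) counts per library. Pairs of libraries were compared by chi-square over genes, divided by its degrees of freedom, so that sampling noise alone gives about 1. This value was 1.04 to 1.60 between libraries a and b of the same tumor and 17.1 to 64.7 between tumors. Control libraries went together by letter across the pools: it was 1.00 and 1.01 between libraries of the same letter, so that they differed by no more than sampling noise, and 3.25 to 3.42 between letters. Levels of each gene in the control pools are therefore given as labelled and also with control libraries of 1 letter counted as 1 sample, while ratios and list sums are given as labelled, and p-values of the tests below rest on 2 control samples that may be technical. The rb1 transcript lay between 18.8 and 101 counts per 1 M counts (CPM) in the tumors and at 13.1 and 14.6 CPM in the pools. Its log2 fold change was 1.47 (SE 0.61) and was not called at an adjusted p of 0.0481 in edgeR, and since a TALEN lesion need not lower a transcript this level does not check the labels. In bulk samples, fewer cells of a type and less RNA per cell cannot be told apart.

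The question of the comparison was which myelin genes differ between rb1 tumors and normal brain. All 8 genes passed the filter on low counts, and with thresholds of 0.01 on the adjusted p and 1.5 on the fold change, 4 were higher in tumors (mbpb, cldnk, cnp and myrf), against 22.8% of the 20957 genes tested. With 1 control pool left out, genes called higher numbered 2949 without pool 1 and 2904 without pool 2 in place of 4779, and those of the 8 called higher numbered 2, cnp and myrf, in both fits. Another 2 were lower (mbpa and cd59), against 24.9% of the genes tested, and 2 were not called (mpz and mag). In the same 4 genes every tumor lay above both pools, which held for 31.5% of all genes tested, and in the same 2 genes every tumor lay below both pools, which held for 32.8%. The summed level of the 8 genes was 3901 to 5542 CPM in tumors and 6592 and 6599 CPM in the pools. The genes thus did not move as a block: the abundant copy of myelin basic protein was lower while its rare copy was higher, and the regulator myrf rose while the membrane genes mpz and mag were not called.

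**Figure D1:**
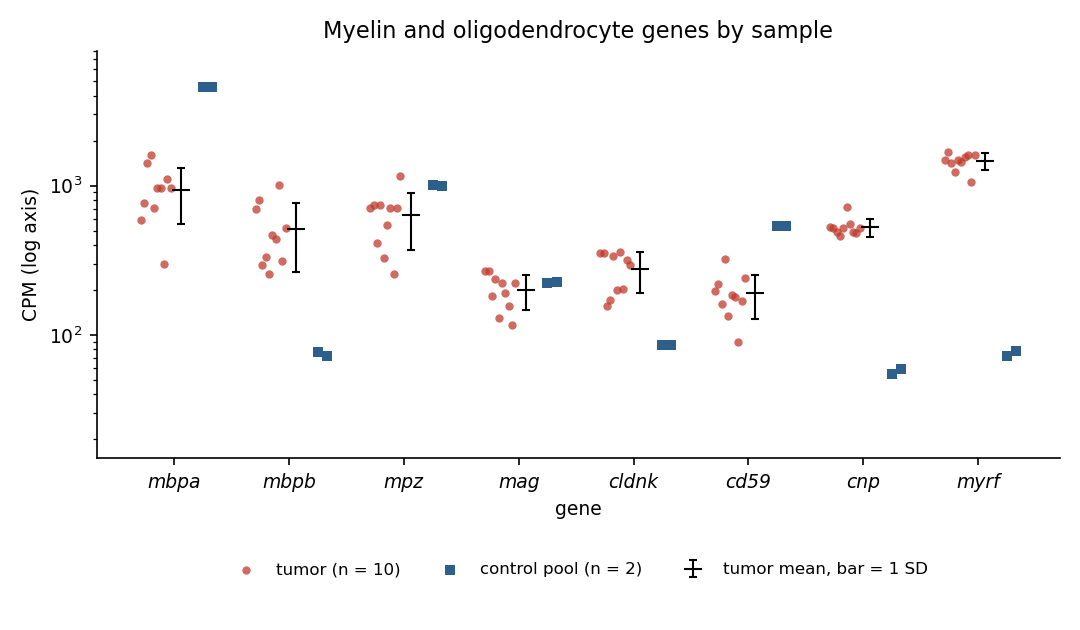
Level of the 8 genes in each sample, in CPM on a log axis, with red points for the 10 tumors, a black bar for their mean and SD, and blue squares for the 2 control pools. The tumors lie below both pools in mbpa and cd59, above both in mbpb, cldnk, cnp and myrf, and on both sides in mpz and mag.

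**Figure D2:**
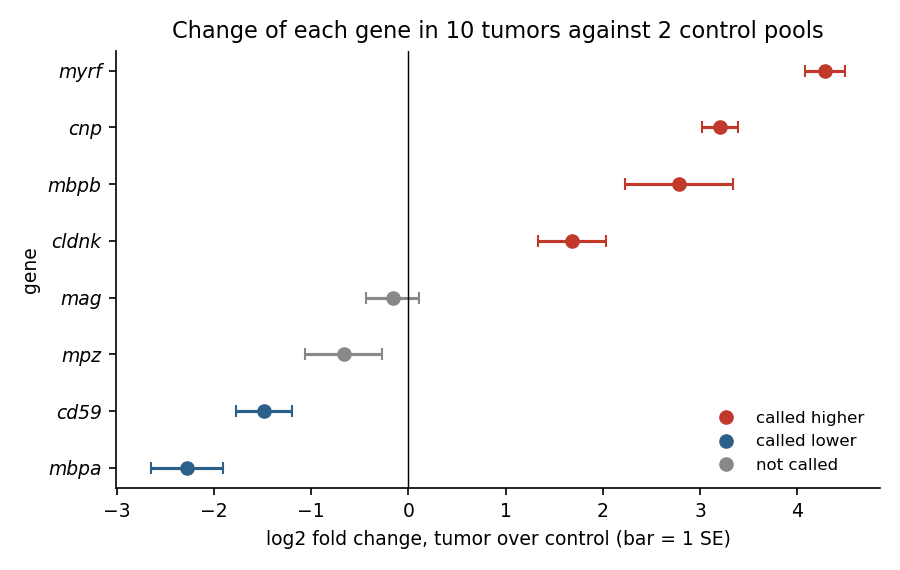
Log2 fold change of each gene in tumors over control pools, with a bar of 1 SE from edgeR, coloured by whether the gene was called higher (red), called lower (blue) or not called (grey). The values run from -2.28 for mbpa to 4.28 for myrf.

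Myelin basic protein, which joins the cytoplasmic faces of the myelin membrane, was read from both of its copies. The copy mbpa was the most abundant of the 8 genes per length in normal brain, with 4544 and 4546 CPM in the pools and 4252 and 4919 CPM by letter. In tumors it ran from 297 CPM in tumor 8 through a median of 966 CPM to 1609 CPM in tumor 4. No tumor reached a pool, and the tumors kept between 6.53% and 35.4% of the control mean. This was a 4.84-fold lower level, or -2.28 on the log2 scale (SE 0.37, adjusted p in edgeR 0.00016). In the same tumors the summed level of a list of 25 neuron genes fell to between 15.4% and 34.1% of control, from 14638 and 14582 CPM in the pools. Its part in the difference of mbpa between tumors and pools was not tested, and its relation to mbpa across tumors is given below.

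The other copy, mbpb, went the opposite way. It stood at 76.4 and 72.1 CPM in the pools and at 72.2 and 77.5 CPM by letter. In tumors it ran from 254 CPM in tumor 5 through a median of 453 CPM to 1009 CPM in tumor 8. Every tumor was above both pools, and tumor 8, the tumor with the least mbpa, had the most mbpb. Its level was 6.90-fold higher (log2 fold change 2.79, SE 0.55, edgeR adjusted p = 0.000749). With only 1 control pool in the fit, where the spread comes from the tumors alone and the lone pool is assumed to vary like them, the log2 fold change was 2.83 without control pool 1 and 2.74 without control pool 2. The pools as labelled were nearly alike, so a similar fold change was bound to follow from leaving out either. The adjusted p was then 0.0133 and 0.0151, and the gene was no longer called.

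Because fragments per kilobase and per 1 M counts (FPKM) divide by exonic length, they allow the copies to be added. The copy mbpb made up 1.588% and 1.498% of the summed FPKM of mbpa and mbpb in the pools. In tumors it made up 16.5% in tumor 4, a median of 31.0%, and 76.5% in tumor 8. Tumors 8 and 1 had more mbpb than mbpa per length, at 342 against 105 FPKM and 234 against 206 FPKM, tumor 2 had nearly equal levels of 266 and 267 FPKM, and the other tumors and both pools had more mbpa. Both copies together gave 355 to 752 FPKM in tumors against 1806 and 1808 FPKM in the pools (1682 and 1931 FPKM by letter), so the gain of mbpb did not make up for the loss of mbpa in any tumor. The log2 ratio of mbpb to mbpa counts within a sample was -2.27 to 1.77 in tumors and -5.89 and -5.98 in the pools. The difference of 5.05 was beyond both pools in 10 of 10 tumors (exact permutation test, two-sided, p = 0.0303, and 0.0303 after adjustment over 5 ratios), and 0.0303 is the smallest p that 10 tumors against 2 pools can give. This separation was bound to follow, since every tumor lay below both pools in mbpa and above both in mbpb. Reads that fit both copies were not counted if only unique alignments were kept, so the level of each copy is uncertain where the copies are alike.

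**Figure D3:**
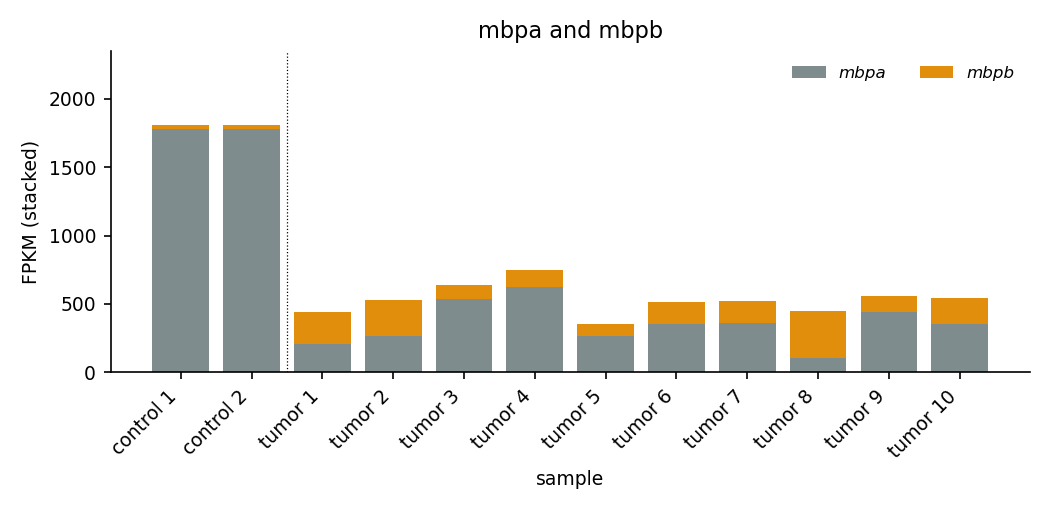
FPKM of the copies of myelin basic protein, mbpa in grey and mbpb in orange, stacked for each of 2 control pools and 10 tumors. The copy mbpb is a thin band in both pools and a visible part of every tumor, and reaches 76.5% of the sum in tumor 8.

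Among the genes of the myelin membrane with 1 copy in this set, mpz and mag were not called. Myelin protein zero (mpz) is an adhesion protein that holds facing membrane layers together. Its level was 1004 and 1001 CPM in the pools (910 and 1113 CPM by letter), and 254 CPM in tumor 8, a median of 709 CPM and 1165 CPM in tumor 10 among tumors. All tumors but tumor 10 were below both pools, and the change of -0.67 on the log2 scale (SE 0.40) was not called in edgeR (adjusted p = 0.158). The gene was called lower under limma with voom and sample quality weights, with a log2 fold change of -0.74 and an adjusted p of 0.00743, a setting that changed the tool and the weights together.

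Myelin-associated glycoprotein (mag), which sits at the contact of myelin with the axon, was at 221 and 225 CPM in the pools (216 and 234 CPM by letter). In tumors it ran from 117 CPM in tumor 9 through a median of 206 CPM to 270 CPM in tumor 1. Of the tumors, 3 were above both pools and 5 below both, and the change of -0.16 on the log2 scale (SE 0.27) was not called in edgeR (adjusted p = 0.619).

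Claudin k (cldnk), a tight junction protein of myelinating glia in zebrafish, was at 86.0 and 85.1 CPM in the pools (77.8 and 94.8 CPM by letter). Tumors ran from 157 CPM in tumor 3 through a median of 307 CPM to 357 CPM in tumor 7. Every tumor was above both pools, with 4 tumors at 157 to 202 CPM and 6 at 295 to 357 CPM. On the log2 scale cldnk was 1.68 higher (SE 0.35, edgeR adjusted p = 0.0011). As with mbpb, the call was lost with 1 control pool in the fit, at an adjusted p of 0.0177 without control pool 1 and 0.0184 without control pool 2.

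The GPI-anchored surface protein Cd59, which blocks the complement attack complex and marks myelinating glia in zebrafish, was lower in tumors. It was at 533 and 533 CPM in the pools (491 and 584 CPM by letter) and ran from 90.3 CPM in tumor 8 through a median of 183 CPM to 324 CPM in tumor 4. No tumor reached a pool, and the lowest and highest tumors were those of mbpa. Tumors changed by -1.49 on the log2 scale (SE 0.29, adjusted p in edgeR 0.00065) and kept 16.95% to 60.8% of the control mean. The fall in the neuron list given beside mbpa also stands beside this gene. Across tumors, on the log2 scale, cd59 and the neuron sum had a Pearson's r of 0.184 and a Spearman's rho of -0.139. The permutation adjusted p was 0.704 and 0.809. The part of the neurons in the difference of cd59 between tumors and pools was not tested.

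The enzyme cnp, a cyclic nucleotide phosphodiesterase of the cytoplasmic channels of myelin that is made early in the lineage in mammals, was at 54.9 and 59.2 CPM in the pools (55.7 and 59.6 CPM by letter). In tumors it ran from 458 CPM in tumor 4 through a median of 517 CPM to 719 CPM in tumor 6. The 10 tumors were tightly grouped apart from tumor 6, with a coefficient of variation of 13.8%. This was a 9.23-fold rise (log2 fold change 3.21, SE 0.18, edgeR adjusted p = 4.6e-08).

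Myrf is the membrane-tethered transcription factor that drives the genes of myelination, and it showed the largest fold change of the 8 genes. It stood at 72.1 and 77.7 CPM in the pools (71.5 and 79.9 CPM by letter). In tumors it ran from 1059 CPM in tumor 9 through a median of 1491 CPM to 1671 CPM in tumor 2. Even the lowest tumor was at 1413% of the control mean, and the coefficient of variation of 12.9% was the smallest of the 8 genes. Its rise was 19.5-fold (log2 fold change 4.28, SE 0.21, edgeR adjusted p = 1.4e-08).

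The regulator and the enzyme were thus the most even of the 8 genes across tumors, and mbpb, mpz and mbpa the least even, with coefficients of variation of 48.6%, 41.4% and 40.8%. The smallest count behind a tumor value was 1900, for cd59, and the smallest mean count in the pools was 1222, for cnp. Libraries a and b of 1 tumor gave member levels within 0.216 of each other on the log2 scale.

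The order of the levels, which can be compared between genes only per length, also differed. In the pools the FPKM means fell from mbpa (1779) through cd59 (488), mpz (208), mag (93.7), cldnk (51.9), mbpb (27.9), and cnp (17.4) to myrf (15.6). Each neighbouring pair there lay further apart than the larger of its SDs over the letter sums. Those sums are of pooled RNA and may be technical, so their SDs do not show how firm this order is across fish. In tumors the order was mbpa (351 ± 154 FPKM, SD, n = 10), myrf (286 ± 28.8), mbpb (179 ± 80.0), cd59 (165 ± 57.8), cldnk (157 ± 46.4), cnp (152 ± 20.01), mpz (124 ± 52.0) and mag (78.8 ± 19.7). Only myrf and mbpb were neighbours further apart than the larger SD, and the other 6 steps of the tumor order were within it. The tumor SDs cover single fish and those of the pools do not, so the steps of the orders cannot be compared. Myrf, last of the 8 in the pools, came next after mbpa in tumors.

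Ratios within a sample do not depend on the scaling between samples, and 4 more were set against mbpa or sox10, which encodes the transcription factor of the oligodendrocyte lineage and of neural crest glia. The log2 ratio of mpz to mbpa was 1.62 higher in tumors than in pools. For mag to mbpa the difference was 2.19 and for cldnk to mbpa 4.02. Relative to these membrane genes, mbpa was lower in every tumor. The log2 ratio of mbpa to sox10 was 6.79 and 6.95 in the pools and between -2.06 and 1.17 in tumors, a difference of -7.17, with sox10 itself at 1071 ± 204 CPM in tumors (SD, n = 10) against a control mean of 38.9 CPM. Each of these 4 ratios lay beyond both pools in 10 of 10 tumors at the smallest p the design allows (exact permutation test, two-sided, p = 0.0303, adjusted p = 0.0303). All of the ratios hold mbpa, so they are not independent of its fall or of each other. For cldnk and sox10, as for mbpb, the separation was bound to follow, since every tumor lay above both pools in these genes.

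Across the 10 tumors the genes fell into pairs that varied together or apart, given here as descriptions of log2 CPM values that share a library and its scaling. The copies mbpa and mbpb varied in opposite directions, with Pearson's r of -0.727. Cd59 varied with mpz (r = 0.838) and with mbpa (r = 0.728), and tumor 8 was the lowest in all 3 genes. Myrf varied with mbpb (r = 0.603) and had r = -0.517 with mbpa, and tumor 9 was the lowest in both myrf and mag. Over 11009 genes ranked, those most like mbpa across tumors were pik3r2 (r = 0.957), pbxip1b (0.930), pacs1a (0.919), oxsr1a (0.911) and tbc1d9 (0.910). Those most like myrf were CU694481.1 (r = 0.968), cldn19 (0.960), eed (0.948), TADA1 (0.948) and zfand1 (0.947). These are the highest of 11009 values over only 10 tumors, where high r can arise by chance, and they were not tested.

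The levels were also set against the summed CPM of the neuron list and of a cell division list over the 10 tumors, on the log2 scale, in 16 relations tested by 100000 permutations. For mbpa and the neurons, Pearson's r was 0.736 (permutation p = 0.0129, adjusted p = 0.0515) and Spearman's rho 0.867 (permutation p = 0.00237, adjusted p = 0.0354). Without the 2 tumors farthest from the median of the neuron sum, tumors 1 and 2, r was 0.837. For mbpb and the neurons, r was -0.769 (permutation p = 0.00992, adjusted p = 0.0515) and rho -0.745 (permutation p = 0.018, adjusted p = 0.0722), and r was -0.710 without tumors 1 and 2. The labels name no batch among tumors other than the library letter. On CPM without TMM scaling, a setting chosen after seeing the data, r was 0.775 for mbpa and -0.761 for mbpb, and with library a alone on that scale the r values were 0.768 for mbpa and -0.768 for mbpb, and with library b alone 0.781 and -0.752.

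The cell division sum was not independent of the neuron sum. Tumors 1, 2 and 8 had the lowest neuron sums (2247, 2756 and 2818 CPM) and the highest cell division sums (7052, 7842 and 7304 CPM). Relations with the 2 sums are thus not separate results. For mbpb and cell division, r was 0.823 (permutation p = 0.00417, adjusted p = 0.0515) and rho 0.782 (permutation p = 0.00989, adjusted p = 0.0527), with r = 0.819 without tumors 2 and 4. Cell division had r = -0.717 with mbpa and 0.753 with myrf (permutation adjusted p = 0.0549 and 0.0515). Without TMM scaling these were -0.747 and 0.552. The rho of cell division with myrf was 0.721 with TMM scaling and only 0.333 without it. With mbpa, rho was -0.697 and -0.721. For myrf and the neurons, r was -0.686 and rho -0.830 (permutation adjusted p = 0.0684 and 0.0354). On CPM without TMM scaling that relation was smaller, at r = -0.548 and rho = -0.455. With library a alone on that scale it was r = -0.545 and rho = -0.442, and with library b alone r = -0.543 and rho = -0.491. Pearson's r and Spearman's rho were adjusted separately over the 16 relations, so the adjustment does not cover the choice between them. Of the 16 relations, only the rank correlations of mbpa and of myrf with the neurons passed an adjusted p of 0.05, and no Pearson's r did.

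**Figure D4:**
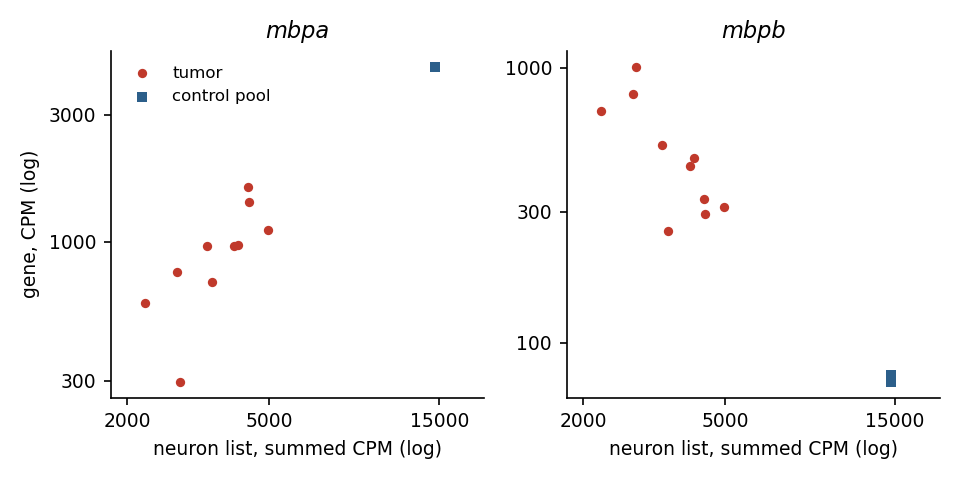
CPM of mbpa and mbpb against the summed CPM of the neuron list in each sample, both on log axes, with red points for 10 tumors and blue squares for 2 control pools. Among tumors mbpa was higher and mbpb lower where the neuron sum was higher, and the control pools lie at the far right with 14638 and 14582 CPM.

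Other genes of myelin and of the oligodendrocyte lineage were read from lists, with the 8 genes left out. Over all genes tested, 22.8% were called higher and 24.9% lower, so a list with calls in both directions is not unusual here. Of 23 tested genes listed for the myelin membrane and its adhesion, 6 rose, 9 fell and 8 were not called. Their median log2 fold change was 0.13 against 0.09 over all genes tested. The median turned negative in several alternatives, among them DESeq2 at -0.44. Those that changed most were pmp22a (4.77, SE 0.50), cldn19 (4.21, SE 0.31), cldn11b (3.45, SE 0.49) and cntn1b (-3.05, SE 0.39), the last being an adhesion protein that neurons also make. The edgeR adjusted p was at most 5.5e-05 for each. Also called lower were cntn2 (-1.98), cntnap1 (-2.63) and nfasca (-0.76), adhesion genes that neurons also make, named after their values were seen. The other falls of this list were hapln2 (-2.08), pllp (-1.61), cd9b (-1.29), cx47.1 (-1.17) and cd9a (-1.14). Of these, pllp had a mean of only 0.32 CPM in tumors and 0.98 CPM in the pools. The part of neurons in the falls of this list was not tested. Claudin 19, which forms junctions in the myelin of Schwann cells in mammals, stood at 3357 ± 690 CPM in tumors (SD, n = 10), while the mean of the pools was 181 CPM.

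Of 12 genes listed as enzymes of myelin lipids, not all of which make a lipid, 7 rose, 1 fell and 4 were not called, with a median of 1.36. The ceramide galactosyltransferase ugt8, which makes galactosylceramide, rose from 50.4 CPM in the mean of the pools to 740 ± 166 CPM (log2 fold change 3.87, SE 0.31, edgeR adjusted p = 6.6e-07). The sulfotransferase gal3st1a, which acts next on that lipid, rose with it (3.82, SE 0.37), as did cers2a (2.14, SE 0.22) and elovl7a (1.85, SE 0.39). The gene that fell was aspa (-1.50, SE 0.43, edgeR adjusted p = 0.00844), which does not itself make a lipid and was named after its value was seen.

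Of 21 other enzymes and cytoskeletal genes of mature oligodendrocytes, 3 rose, 5 fell and 13 were not called, with a median of -0.83. The genes that rose were anln, tppp and tubb4b, of which anln is also a gene of cytokinesis and tubb4b a tubulin of many cells. Among those that fell, s100b changed by -2.16 (SE 0.40) and is also made by astroglia. Tppp, which bundles microtubules, ranged widely, at 180 ± 136 CPM in tumors (SD, n = 10), while the mean of the pools was 2.11 CPM (log2 fold change 6.41, SE 1.19, edgeR adjusted p = 0.000446).

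Genes of the earlier stages had more calls up than down, against 22.8% of all genes tested called higher and 24.9% called lower. Of 27 genes of oligodendrocyte precursors, 14 rose and 7 fell, with a median of 0.81, and the largest changes were in sox8b (5.90), sox9b (5.24), sox10 (4.78) and vcanb (4.72). The genes that fell include pdgfra (-2.12, SE 0.43), the growth factor receptor that marks these precursors in mammals, named after its value was seen. The other falls of this list were olig1 (-2.76), nkx2.2b (-2.56), lingo1b (-2.15), ptprz1a (-1.77), cspg4 (-1.57) and ptprz1b (-1.29). Of these, nkx2.2b had a mean of only 0.15 CPM in tumors and 0.93 CPM in the pools. Of 16 genes of committed and newly formed oligodendrocytes, 8 rose and 3 fell, with a median of 0.89. The receptor gpr17, a mark of the committed stage, rose from 5.89 CPM in the mean of the pools to 1305 ± 176 CPM (log2 fold change 7.79, SE 0.26, edgeR adjusted p = 9.6e-10), a larger fold change than in any of the 8 genes. Next in size in this list were cnksr3 (4.93), arhgef10 (3.81) and zfhx4 (-2.55). Of 28 genes listed as regulators of myelin genes, other than myrf, 11 rose and 7 fell, with a median of 0.33. The largest rises were in tfeb (4.87), sox10 (4.78), nkx2.2a (4.59) and olig2 (3.56). Those that fell were olig1, id2a, id4, her6, her9, hey1 and nfasca, named after their values were seen. Of these, nfasca is an adhesion gene rather than a regulator and is also counted in the list of the myelin membrane. The regulators sox10, olig1, olig2 and nkx2.2a are also counted among the precursors, and nkx6.2 and tcf7l2 among the committed stage. The counts of these lists are therefore not independent.

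Since mpz and sox10 are also made by Schwann cells and other neural crest glia, a list of genes of those cells was counted. Its 15 tested genes other than mpz still included sox10. Among the 15, 3 rose (sox10, erbb3a and erbb3b), 3 fell and 9 were not called, with a median of -0.02. Those that fell were nrg1 (-2.49), gfra2a (-2.41) and pou3f1 (-1.52). The Schwann cell regulator egr2b was at 3.53 CPM in the mean of the tumors and 5.66 CPM in that of the pools and was not called. Of the same list, prx and egr2a, with at most 7 and 4 counts in any library, did not pass the filter, and foxd3 had 0 counts in every library. The list summed to 1443 to 2289 CPM in tumors and 260 and 252 CPM in the pools, and most of the tumor sum, but not of the pool sum, came from sox10, erbb3a and erbb3b. These 3 genes are also made in the oligodendrocyte lineage.

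Markers of other cells moved with the groups, and their part in the differences of the 8 genes between tumors and pools was not tested. Of 25 neuron genes, 23 fell and 1, elavl3, rose, with a median of -2.51 and sums of 2247 to 4981 CPM in tumors. Of 14 radial glia genes, 9 fell, with sums of 1320 to 3092 CPM in tumors and 7149 and 7100 CPM in the pools. Of 20 genes of microglia and macrophages, 14 rose, with sums of 3094 to 6863 CPM against 889 and 886 CPM, and of 22 cell division genes 21 rose, with sums of 4627 to 7842 CPM against 151 and 159 CPM. Endothelial genes summed to 348 to 480 CPM in tumors and 336 and 343 CPM in the pools, with 15 of 19 not called.

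**Figure D5:**
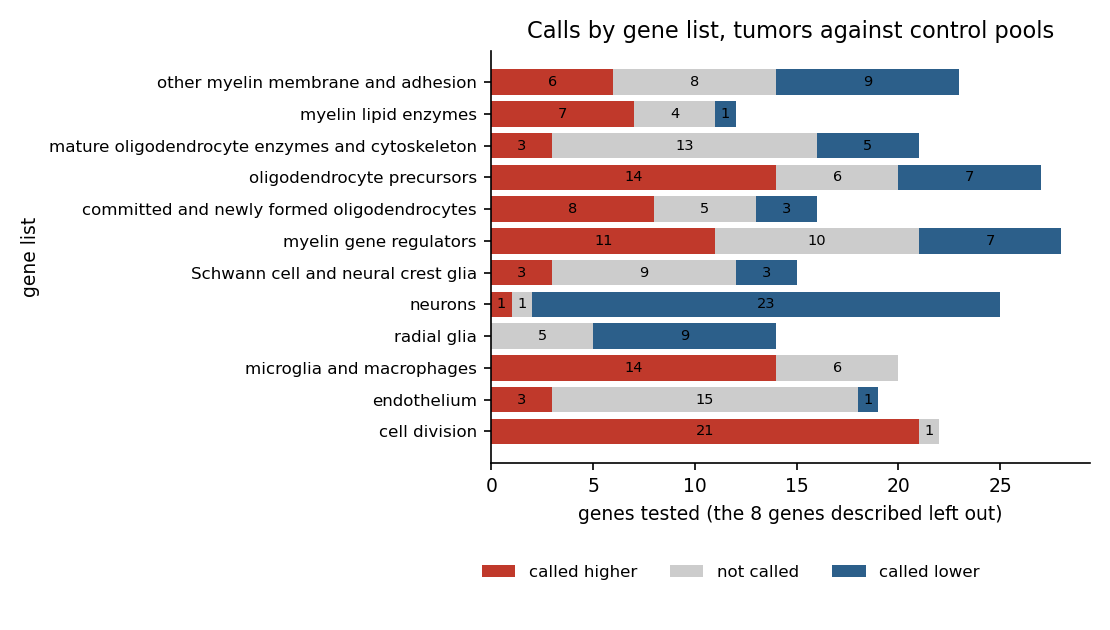
Number of tested genes called higher (red), not called (grey) and called lower (blue) in each gene list, with the 8 genes left out. The myelin and oligodendrocyte lists hold calls in both directions, the neuron list 23 lower calls of 25, and the cell division list 21 higher calls of 22. Of all genes tested, 22.8% were called higher and 24.9% lower.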

How the data were processed

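RNA of 10 rb1 brain tumors and 2 control pools was read on 24 libraries as short single-end reads, and the counts deposited by the authors are whole reads per Ensembl gene, not normalized. GSNAP, HTSeq and DESeq2 and the build GRCz10 are named in the submitters' processing notes, and strand is not stated. The study states unique alignments under the heading of its larval libraries, in a passage that goes on to analyses also made of tumors. It does not say outright that the tumor libraries were treated the same way. The deposited FPKM values were made by the authors from counts, the deposited exonic length of each gene in base pairs (another unit) and library totals, and recomputing them gave a largest relative difference of 1.38e-07. The authors' comparison table holds log2 fold changes, errors, p-values and means from DESeq2 and was not used.

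Library replicates were summed, and tumors and pools were compared with edgeR (version 4.0.16, R 4.3.3), whose quasi-likelihood test was run after TMM scaling and filterByExpr, with Benjamini-Hochberg adjustment over all 20957 genes tested. The thresholds for a call, 0.01 for the adjusted p and 1.5-fold for the change, are those of the study. CPM are scaled by TMM unless stated, and the scripts were tested on simulated data. Ratios of 2 genes were formed as log2 of counts plus 0.5 and tested by exact permutation in SciPy 1.17.1. The members and lists were chosen with earlier results of these data known. Some members are not reported here and are left out of every count and ratio. All others were named, and so were the 4 genes of largest change from each list of myelin, of the oligodendrocyte lineage and of neural crest glia. These were taken among the genes called with at least 10 CPM in the higher group, members left out. Lists of other cells were counted without naming genes by this rule. Other genes named from the lists stand outside it. For mbpa and myrf the 5 most correlated genes were named, and rb1 as the targeted gene. Intervals and errors cover these samples only, and reads carry no molecular identifiers. Each SE of a log2 fold change was taken as its absolute value over the square root of the F statistic of the edgeR test. Alternatives were DESeq2 1.42.0, limma 3.58.1, other scalings and filters, 1 library letter, FPKM, control libraries summed by letter, glmTreat, a replicate block and leaving out each sample. The main fit was also read at looser thresholds.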

Additional observations from a re-analysis of the deposited data

Results flagged for a closer look

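Among 26 sets of 10 tumor values (levels of the 8 genes, the 5 ratios and the list sums), 2 held a tumor far from the other tumors by Dixon's test, and chance alone flags about 1 set in 20. The level of cnp was 719 CPM in tumor 6, at a gap of 0.624 of the range of the tumors from the next tumor. The summed level of the other enzymes and cytoskeletal genes of mature oligodendrocytes was 4458 CPM in tumor 9, at a gap of 0.543 of the range. This sum is mostly tubb4b, a tubulin of many cells. Its tumor mean was 6032 CPM, and the median of the sum over tumors was 7306 CPM. Tumor 9 was also the lowest tumor in mag and myrf.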

How the results depend on the processing

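Each member was read under 15 other settings and refitted with each of 12 samples left out. Among the settings was the main fit read again at an adjusted p of 0.05 with no fold threshold. Every called member passes that setting by construction, so it says nothing about stability. With it included, the 2 members called lower passed the threshold in the same direction in 54 of 54 alternatives, and the 4 called higher in 104 of 108. The exceptions were mbpb and cldnk without a control pool, where the log2 fold changes were 2.74 and 2.83 for mbpb and 1.68 and 1.69 for cldnk. With any sample left out, these values ran from 2.68 to 2.86 and from 1.62 to 1.79, members called higher from 2 to 4, and genes called higher from 2904 to 5046. The test against a 1.5-fold change (glmTreat) called 3158 genes higher. Under voom with sample quality weights mpz was called, at -0.74. The direction of mag, which was not called, turned to 0.27 with the replicate block. Only the numbers 1 and 2 occur in both groups, so that fit set only tumors 1 and 2 against the pools. In these tumors mag was at 121% and 120% of the control mean. The labels do not pair tumors with pools by number. The r of deviations between a tumor and the pool of the same number was 0.0116 and 0.012. Pool libraries of the same letter differed by no more than sampling noise, so this r would lie near 0 either way and cannot test pairing. The replicate block kept the 4 higher and 2 lower calls among members. Since the other tumors did not enter its change, it does not show stability across tumors. The 5 ratios kept their direction in 80 of 80 refits. Their p was the smallest the design allows and cannot show stability.

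The median of the list of other myelin membrane and adhesion genes turned negative under DESeq2 (-0.44), voom (-0.23), library b alone (-0.34), log2(FPKM + 1) (-0.12), log2(FPKM + 0.1) (-0.26), the replicate block (-0.26) and without tumor 5, and ran from -0.42 to 0.23 with any sample left out. The endothelial median was -0.073 with library a alone. That of Schwann cell and neural crest glia ran from -0.35 to 0.077 with a sample left out, and was above 0 without control pool 2 or tumor 2, 4 or 8. The causes were not tested. The smallest count of a member in a tumor was 1900.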
